A study of Mus musculus with 24 samples.

Results

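The 10 genes described here are the Notch receptors Notch1, Notch2 and Notch3, the ligands Dll1, Dll3, Jag1 and Jag2, and the targets Hes1, Hes5 and Hey1. They were chosen by symbol, and all 10 were found among the 23947 symbols of the deposited expression table. The table holds RNA-seq of 3 tissues of CD-1 mice: forebrain dissected from embryos at E12.5 (E counts days of gestation), and lens epithelium and lens fibers of newborn animals at P1 (P counts days after birth). The labels name no mutant, transgene or treatment in any group, and they do not say how many animals or litters a library pooled. Each tissue was sequenced as 1 library, so no value has a replicate error, no test between tissues was possible, and forebrain differs from lens in tissue and age together. The series also holds ChIP-seq of the transcription factor Pax6, RNA polymerase II and histone marks, and open chromatin data, which give positions on the mouse build mm9 without gene names and were not used here.

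Notch signalling passes between neighbouring cells. A Delta-like or Jagged ligand on one cell binds a Notch receptor on the next, the receptor is cut by an ADAM protease and then by gamma-secretase, and the freed intracellular part joins the DNA-binding protein Rbpj and switches on target genes, among them Hes and Hey repressors. In embryonic forebrain the pathway is known for keeping radial glia as progenitors while neighbouring cells, which express proneural factors and Dll1, become neurons. In lens, Jag1, Notch2 and Rbpj are known to act in the balance between dividing epithelial cells and elongating fibers.

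Values are RPKM, read counts scaled to the length of the gene model and to the number of mapped reads. RPKM allows levels to be compared between genes of a library. Differences between libraries are given as log2((RPKM + 1)/(RPKM + 1)), a scale on which differences between low values come out too small, and a gene was counted as different at 2-fold, a log2 ratio of at least 1 or at most -1. A gene entered a comparison if it had at least 1 RPKM in either library. Crystallins took 85.5% of all protein-coding RPKM in the fiber library, 9.07% in epithelium and 0.0411% in forebrain. Over all genes tested the median log2 ratio was -0.03 when epithelium was set against forebrain. It was -0.41 when fiber was set against forebrain and -0.42 against epithelium. With every library scaled to the same sum without crystallins these medians were 0.04, -0.76 and -0.82.

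Most markers listed for each tissue were highest in its library. All 7 forebrain markers were above 1 RPKM in forebrain (10.7 to 460.6), all 6 epithelium markers in epithelium (19.4 to 784.4) and all 7 fiber markers in fibers (51.6 to 16275.5). The exceptions were Sox1 of the forebrain list, at 13.1 RPKM in forebrain and 48.5 in fibers, and Clu and Pitx3 of the epithelium list, at 237.6 and 34.99 in epithelium and 450.5 and 37.3 in fibers. The lens epithelium library also carried markers of other cells around the lens. The summed RPKM of 10 endothelial markers was 49.5 in forebrain, 111.4 in epithelium and 1.81 in fibers, and that of 8 markers of pericytes and smooth muscle was 8.40, 97.8 and 2.096. Without Rgs5, which alone was at 78.5 RPKM in epithelium, the latter sums were 5.48, 19.3 and 1.96. For 7 markers of retina, pigment cells and ciliary epithelium it was 11.9, 118.1 and 0.934, and for the 7 fiber markers 5.002, 1319.7 and 36626.7. In bulk tissue, fewer cells of a type and less RNA per cell cannot be told apart, and this applies to every level below.

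The receptors differed by at most 2.33-fold in RPKM between forebrain and epithelium and were low in fibers. Notch1, the receptor best known from neural progenitors, was at 9.35 RPKM in forebrain, 6.26 in epithelium and 1.81 in fibers. Notch2 was at 7.68, 17.9 and 0.891 RPKM, and Notch3, a receptor of pericytes and vascular smooth muscle among other cells, was at 6.33, 12.1 and 1.27. Notch1 was thus highest in forebrain, and Notch2 and Notch3 were highest in epithelium. For epithelium over forebrain, Notch2 passed 2-fold with a log2 ratio of 1.12, while Notch3 (0.84) and Notch1 (-0.51) did not. Notch3 reached 1.09 when libraries were scaled to equal sums over protein-coding genes without crystallins.

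Against fibers the receptors differed more. All 3 were at least 2-fold lower in fibers than in epithelium, with log2 ratios of -3.32 for Notch2, -2.53 for Notch3 and -1.37 for Notch1. They were also lower than in forebrain, at -2.20, -1.69 and -1.88. Notch2 lay at the percentile 2.32 of all genes tested for fiber over epithelium, and Notch3 at 4.71. The endothelial markers and those of pericytes and smooth muscle are set beside these receptors. In epithelium over forebrain 4 of 10 and 4 of 6 tested were at least 2-fold higher, beside 13.7% of all genes. The other 6 and 2 passed in neither direction. In fiber over epithelium 10 of 10 and 6 of 6 were at least 2-fold lower, beside 28.3%. The pericyte gene Rgs5, the highest of its list in epithelium, was at 2.92 RPKM in forebrain, 78.5 in epithelium and 0.140 in fibers. Pdgfrb was at 2.31, 5.22 and 0.480, and its epithelium over forebrain ratio (0.91) did not pass 2-fold. The part of these cells in the receptor values was not tested.

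**Figure D1:**
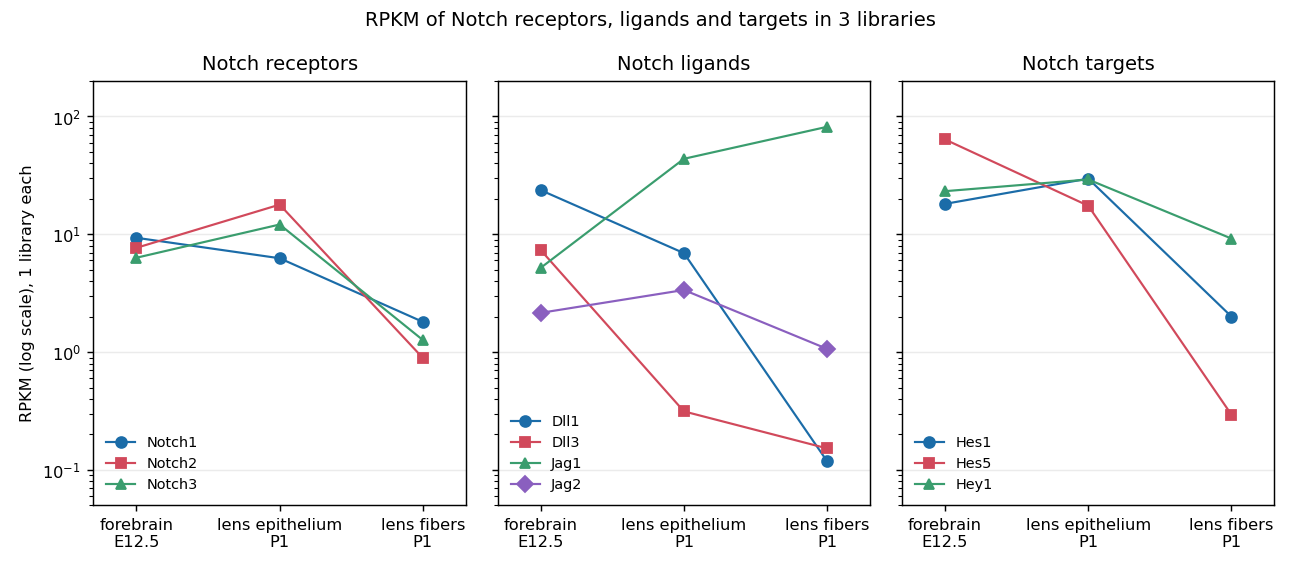
RPKM on a log axis of the 3 receptors, 4 ligands and 3 targets in forebrain, lens epithelium and lens fibers, 1 library each; lines join the values of a gene and do not show a course in time. Jag1 goes from 5.19 RPKM in forebrain to 81.8 in fibers, and Dll1 from 23.7 to 0.118.

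Within a library the make-up of the receptors differed too. Notch1 held 40.0% of the summed RPKM of the 3 receptors in forebrain, 17.3% in epithelium and 45.6% in fibers. Notch2 held 32.9%, 49.3% and 22.5%, and Notch3 27.1%, 33.4% and 31.9%. The order in forebrain was Notch1, Notch2, Notch3, in epithelium Notch2, Notch3, Notch1 and in fibers Notch1, Notch3, Notch2. The levels in forebrain lay within a range of 6.33 to 9.35 RPKM and those in fibers within 0.891 to 1.81, and with 1 library each it cannot be said whether neighbours in these orders differ. The share of a gene within its library does not depend on how libraries are scaled to each other.

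Among the ligands, Dll1 and Dll3 were highest in forebrain and Jag1 was high in lens. Dll1, the Delta-like ligand that activates receptors on neighbouring cells, was at 23.7 RPKM in forebrain, 6.92 in epithelium and 0.118 in fibers. Dll3, a divergent Delta-like protein known to dampen Notch signalling inside its own cell, was at 7.35, 0.314 and 0.152. Both were highest in forebrain, and Dll1 was lowest in fibers. Dll3 was below 1 RPKM in both lens libraries, so no order between these was read for it. For epithelium over forebrain the log2 ratios were -1.64 for Dll1 and -2.67 for Dll3, and for fiber over forebrain -4.47 and -2.86. With a pseudocount of 0.1 RPKM in place of 1 the fiber over forebrain ratio of Dll1 was -6.77 and that of Dll3 -4.88, so the size of these differences rests on values far below 1 RPKM in fibers.

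Jag1 had the opposite order. It was at 5.19 RPKM in forebrain, 43.8 in epithelium and 81.8 in fibers, which is 8.42-fold higher in epithelium and 15.7-fold higher in fibers than in forebrain. The log2 ratios of 2.85 and 3.74 lay at the percentiles 97.6 and 98.05 of all genes tested. In RPKM as deposited Jag1 was the only one of the 10 genes with its highest level in fibers. The fiber value was 1.87-fold that of epithelium, a log2 ratio of 0.89 that did not pass 2-fold. It ranged from 0.39 with libraries scaled to equal sums without crystallins to 1.12 with the median ratio set to 1. Among protein-coding genes Jag1 lay above 66.2% in forebrain, 95.8% in epithelium and 97.1% in fibers. Jag2, the other Jagged ligand, was low throughout at 2.15, 3.37 and 1.06 RPKM, and only its fiber over epithelium ratio of -1.08 passed 2-fold. That ratio was -0.95 with the median ratio set to 1.

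Summed over the 4 ligands, RPKM was 38.4 in forebrain, 54.4 in epithelium and 83.1 in fibers. Dll1 and Dll3 together held 80.9% of this sum in forebrain, 13.3% in epithelium and 0.325% in fibers, and Jag1 and Jag2 held 19.1%, 86.7% and 99.7%. Jag1 alone held 98.4% in fibers, where the receptors summed to 3.96 RPKM against 36.2 in epithelium and 23.4 in forebrain. In RPKM as deposited the fiber library thus had the highest summed ligand level, and this rank depends on the scaling. All RPKM of a library summed to 598020 in forebrain, 587475 in epithelium and 2603161 in fibers. The ligands made up 0.00642%, 0.00925% and 0.00319% of these sums, lowest in fibers, and 0.00642%, 0.00961% and 0.0104% of the sums without crystallins. Jag1 held 0.00745% of all RPKM in epithelium and 0.00314% in fibers, or 0.00773% and 0.0102% without crystallins. The receptors were lowest in fibers on each of these scales. Dll4, a ligand of endothelial cells, added 0.451, 1.48 and 0 RPKM and left the Delta-like share at 81.1%, 15.6% and 0.325%.

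**Figure D2:**
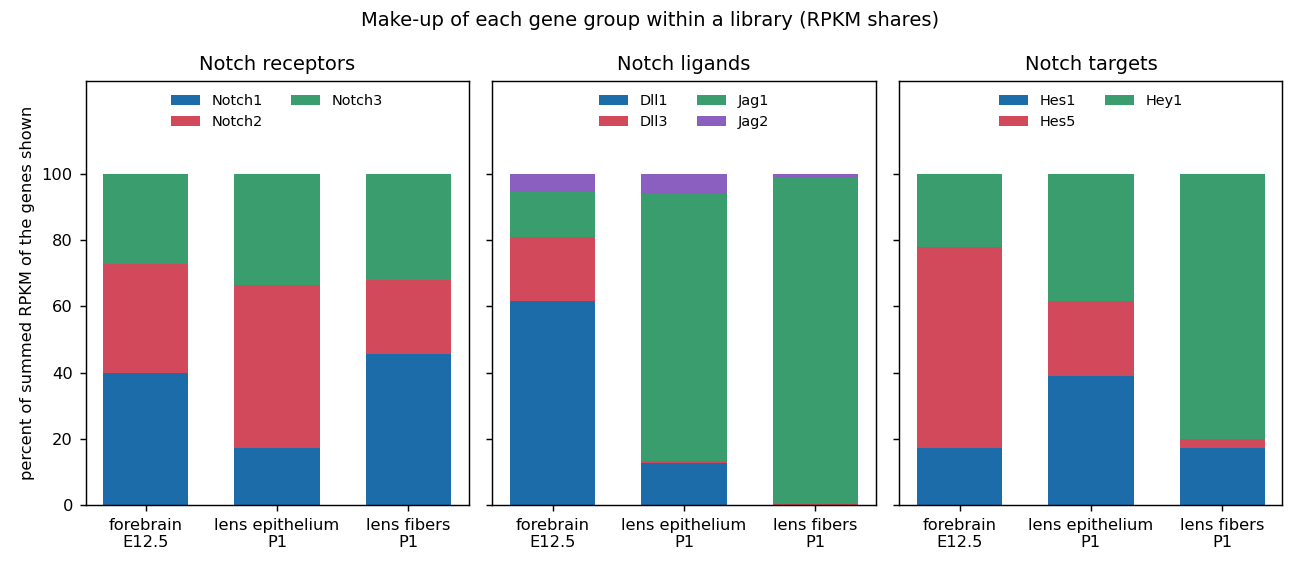
Percent of the summed RPKM of the genes shown that each gene held within a library, for receptors, ligands and targets, 1 library per bar. Dll1 holds 61.7% of the ligand sum in forebrain and Jag1 80.5% in epithelium and 98.4% in fibers, and Hes5 goes from 60.7% of the target sum in forebrain to 2.56% in fibers.

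The stretches before the start sites of Dll1 and Jag1 are shown because these ligands had opposite orders over the tissues. They are the 250 bases upstream, 5′ to 3′ along the gene, from RefSeq on build GRCm38.p6; of the 10 genes, 8 had an entry in that table and Hes1 and Hey1 did not. Dll1 has 2 start sites there. Capitals mark any match to TGGGAA, the core bound by Rbpj, on either strand; these 3 stretches hold none, which says only that these letters are not in this window.
Dll1 start site 1, chr17:15375824-15376073, minus strand: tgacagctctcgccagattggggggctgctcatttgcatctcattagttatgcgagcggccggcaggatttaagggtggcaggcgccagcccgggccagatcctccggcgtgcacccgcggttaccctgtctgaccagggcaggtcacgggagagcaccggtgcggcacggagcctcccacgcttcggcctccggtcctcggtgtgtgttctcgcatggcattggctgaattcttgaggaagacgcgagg
Dll1 start site 2, chr17:15376933-15377182, minus strand: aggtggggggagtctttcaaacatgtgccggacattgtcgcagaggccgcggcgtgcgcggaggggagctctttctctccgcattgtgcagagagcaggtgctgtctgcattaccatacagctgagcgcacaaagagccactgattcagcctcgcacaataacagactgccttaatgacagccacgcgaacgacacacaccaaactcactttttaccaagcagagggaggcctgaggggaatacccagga
Jag1, chr2:137116521-137116770, minus strand: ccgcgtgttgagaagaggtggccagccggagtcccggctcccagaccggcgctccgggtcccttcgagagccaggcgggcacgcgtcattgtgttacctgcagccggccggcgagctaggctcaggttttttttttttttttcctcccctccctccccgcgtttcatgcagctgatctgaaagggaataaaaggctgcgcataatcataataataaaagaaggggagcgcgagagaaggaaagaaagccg

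The targets were lowest in fibers, and Hes5 was the one that differed most. Hes5, a basic helix-loop-helix repressor of neural progenitors, was at 63.8 RPKM in forebrain, 17.5 in epithelium and 0.294 in fibers. Hes1, a repressor of the same family that is active in many tissues, was at 18.1, 29.7 and 2.002. Hey1, which belongs to the related Hey repressors and is also known from blood vessels, was at 23.2, 29.2 and 9.20. Hes5 was thus highest in forebrain, while Hes1 and Hey1 were at their highest in epithelium. For epithelium over forebrain only Hes5 passed 2-fold (-1.81), with Hes1 at 0.68 and Hey1 at 0.32.

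In fibers all 3 targets were at least 2-fold lower than in either other library. The log2 ratios over epithelium were -3.84 for Hes5, -3.35 for Hes1 and -1.57 for Hey1, and those over forebrain were -5.65, -2.67 and -1.25. The Hes5 ratio over forebrain lay at the percentile 0.615 of all genes tested, the Hes1 ratio at 6.15 and the Hey1 ratio at 24.1. Hey1 kept the highest level of the targets in fibers and made up 80.0% of their sum there. Hes5 was 3.52-fold the level of Hes1 in forebrain and 0.588-fold in epithelium. Markers of retina, pigment cells and ciliary epithelium, tissues next to the lens in which Hes1 and Hes5 are also known, were at least 2-fold higher in epithelium than in forebrain for 6 of 7 and at least 2-fold lower in fibers than in epithelium for 6 of 7. Of these, the homeobox gene Rax was at 0.188, 15.8 and 0 RPKM. The marker outside both counts was Otx2, which went the other way against forebrain. It was at least 2-fold lower in epithelium than in forebrain (-1.92), and its fiber over epithelium ratio (-0.98) did not pass 2-fold. The part of these cells in the epithelium values of Dll1 and the targets was not tested.

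**Figure D3:**
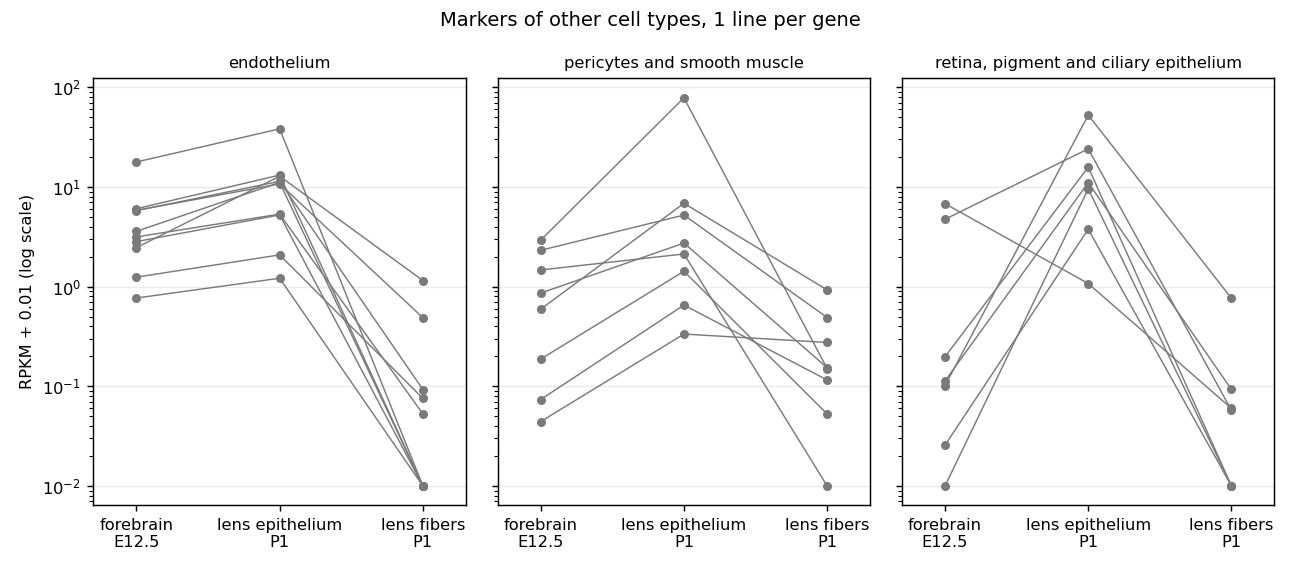
RPKM plus 0.01, on a log axis, of 10 endothelial markers, 8 markers of pericytes and smooth muscle and 7 markers of retina, pigment cells and ciliary epithelium in the 3 libraries, 1 line per gene. All endothelial markers lie above 1 RPKM in epithelium, and 5 of them are listed at 0 in fibers.

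The upstream stretch of Hes5 is shown because it was the only one of the 8 genes with an Rbpj-type match in this window. Both strands were searched for TGGGAA and for its longer form GTGGGAA, which contains it. Hes5 held GTGGGAA 2 times, on the minus strand at 226 to 220 bases and on the plus strand at 83 to 77 bases before the start site, marked in capitals. Of 32851 upstream stretches of the same length in the table, 5.42% held GTGGGAA at least once and 0.161% held it 2 or more times; TGGGAA was in 21.6%. A match is a description of letters, and no occupancy was measured here.
Hes5, chr4:154960673-154960922, plus strand: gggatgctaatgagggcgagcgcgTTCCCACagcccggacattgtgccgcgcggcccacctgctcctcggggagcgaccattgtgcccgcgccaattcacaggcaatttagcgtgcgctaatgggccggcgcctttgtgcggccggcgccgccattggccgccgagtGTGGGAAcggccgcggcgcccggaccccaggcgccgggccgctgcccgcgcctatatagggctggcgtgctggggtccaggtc

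Counted against all genes, the 10 members stood as follows. In epithelium over forebrain 2 of 10 (Notch2 and Jag1) were at least 2-fold higher, against 13.7% of 12619 genes tested, and 3 of 10 (Dll1, Dll3 and Hes5) were lower, against 11.9%. The members' median log2 ratio was 0.39. In fiber over forebrain 1 of 10 (Jag1) was higher, against 15.9% of 12205 genes, and 8 of 10 were lower, against 31.6%; Jag2, at -0.61, passed in neither direction. The members' median was -2.04. In fiber over epithelium 9 members were tested, since Dll3 was below 1 RPKM in both libraries. None of them was higher, against 11.4% of 12090 genes, and 8 of 9 were lower, against 28.3%, with a median of -2.53. At 4-fold, Jag1 was the 1 member higher in epithelium than in forebrain (4.68% of all genes) and Dll3 the 1 member lower (3.25%). In fiber over forebrain Jag1 was higher (6.37%) and 5 of 10 were lower (11.4%), and in fiber over epithelium none was higher (3.75%) and 5 of 9 were lower (8.12%).

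These backgrounds depend on the scaling. With equal sums without crystallins, 11.3% of all genes were higher and 40.9% lower for fiber over forebrain; the shares against epithelium were 6.75% and 42.0%. With equal sums over protein-coding genes without crystallins, 18.2% were higher and 9.16% lower for epithelium over forebrain, where 3 members were then higher. The 3 comparisons share libraries and are not independent of each other.

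**Figure D4:**
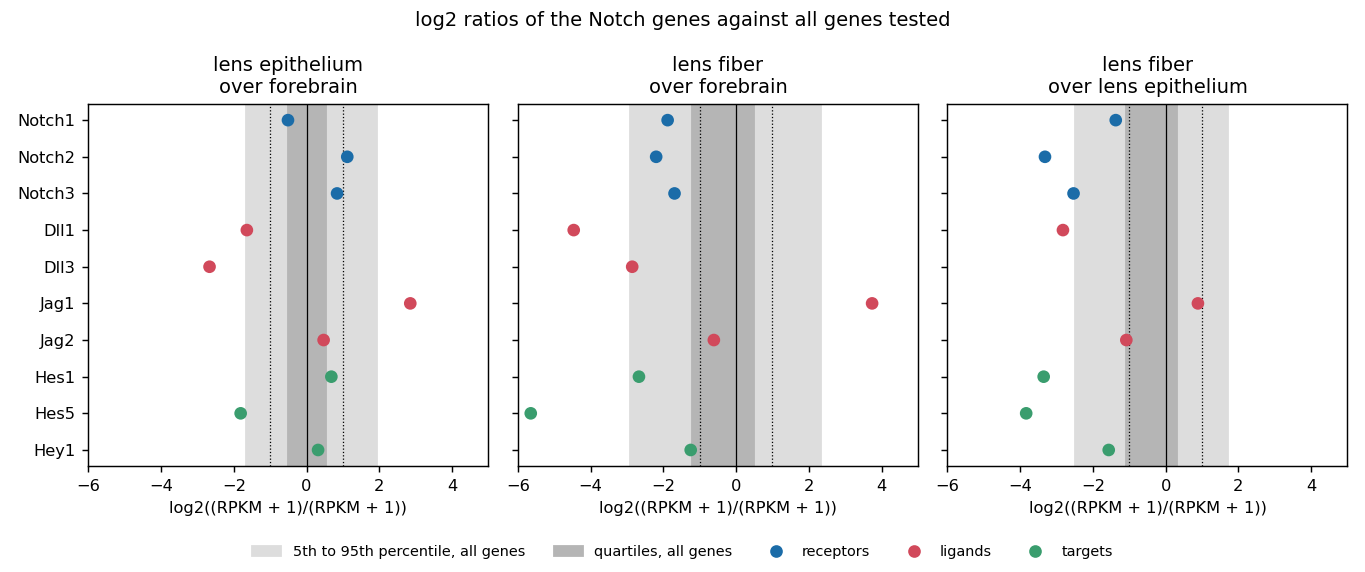
log2((RPKM + 1)/(RPKM + 1)) of the 10 genes for the 3 pairs of libraries, with dark and light bands for the quartiles and the 5th to 95th percentiles of all genes tested and dotted lines at 2-fold. Jag1 lies beyond the upper band in both comparisons with forebrain, and Hes5 beyond the lower band in all 3; Dll3 has no point for fiber over epithelium.

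A further 66 genes of the pathway were examined in 7 lists, from noncanonical ligands to proneural genes. In epithelium over forebrain 7 of 60 tested were at least 2-fold higher, beside 13.7% of all genes, and 13 were lower, beside 11.9%. In fiber over forebrain 6 of 56 were higher (15.9% of all genes) and 22 lower (31.6%), and in fiber over epithelium 4 of 52 were higher (11.4%) and 19 lower (28.3%). The shares of higher genes were thus under those of all genes, and the shares of lower genes above them. Proneural genes were 5 of the 13 lower in epithelium than in forebrain and 6 of the 22 lower in fibers than in forebrain. Whether these shares differ from those of all genes was not tested. The medians were -0.07, -0.53 and -0.57, beside -0.03, -0.41 and -0.42 for all genes.

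Of the proteases that cut the receptor, 3 of 9 were higher in epithelium than in forebrain, beside 13.7% of all genes, and none was lower: Psen2, a catalytic subunit of gamma-secretase (1.42 RPKM in forebrain, 12.4 in epithelium, 6.29 in fibers), Ncstn, its subunit nicastrin (8.74, 28.6 and 28.4), and Furin, which trims the receptor on its way to the surface (0.837, 2.78 and 4.03). In fiber over forebrain 4 of 9 were higher, beside 15.9% of all genes, the fourth being Adam10, a protease that cuts bound Notch (6.48 RPKM in forebrain and 19.0 in fibers), and Aph1b was lower (5.96 and 1.02). In fiber over epithelium none of 9 was higher, and Aph1b (-1.29) and Aph1a (-1.14) were lower, beside 28.3% of all genes. With the median ratio set to 1, Adam10 (1.14) passed as higher there and Aph1a (-0.99) no longer as lower, and with equal sums without crystallins Psen2 passed as lower (-1.32).

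Among the glycosyltransferases that modify Notch, only the fringe gene Mfng passed 2-fold, lower in every comparison, at 18.8 RPKM in forebrain, 3.21 in epithelium and listed at 0 in fibers; with equal sums without crystallins Poglut1 was also lower in fibers (-1.14 over forebrain and -1.30 over epithelium). The related fringe gene Lfng was at 19.6, 22.9 and 31.5 RPKM. Of the genes for ligand endocytosis and receptor traffic, Mib1, the ubiquitin ligase that activates ligands, was at 32.3, 36.6 and 29.5 RPKM. In this list 1 of 11 was lower in epithelium than in forebrain, a share near the 11.9% of all genes. This was Fbxw7, which marks the active receptor for destruction (-1.20). In fiber over forebrain 6 of 11 were lower, beside 31.6% of all genes, led by Dtx1 (-2.38), Dtx4 (-2.34), Numbl (-2.16) and Itch (-1.35). Dtx4 (-2.03), Dtx1 (-1.86), Numbl (-1.64) and Itch (-1.29) were the 4 of 11 that were lower in fibers than in epithelium, a share near the 28.3% of all genes. With equal sums without crystallins it was 7 of 11, beside 42.0% of all genes. The Fbxw7 ratio over forebrain in epithelium was -0.97 with equal sums over protein-coding genes without crystallins.

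In epithelium over forebrain 1 of 15 nuclear partners tested was lower, beside 11.9% of all genes, and none was higher, beside 13.7%. The lower gene was Tle1, a Groucho co-repressor (-1.12). With equal sums over protein-coding genes without crystallins Tle1 was at -0.87, and Maml2 passed instead at 1.05. Rbpj was at 4.15 RPKM in forebrain, 2.302 in epithelium and 1.04 in fibers. In fiber over forebrain, Rbpj (-1.34), Tle1 (-2.78) and the deacetylase gene Hdac1 (-1.26) were lower and the acetyltransferase gene Kat2b was higher (5.37 RPKM in forebrain and 24.7 in fibers, 2.01), out of 14 tested, both under the shares of all genes (31.6% and 15.9%). In fiber over epithelium the shares of this list were near or under those of all genes (11.4% higher and 28.3% lower). There 2 of 15 were higher, Kat2b (1.96) and the co-repressor Tle3 (1.37), and 3 were lower, Tle1 (-1.67), Hdac1 (-1.26) and the coactivator gene Maml2 (-1.05). Tle3 was at 0.90 with equal sums without crystallins, where 5 were lower, beside 42.0% of all genes. Maml2 was at -0.93 with the median ratio set to 1.

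Among the other Hes, Hey and feedback genes, Nrarp, a feedback inhibitor induced by Notch, was at 27.7 RPKM in forebrain, 10.8 in epithelium and 3.003 in fibers, and Hes6, which is known to oppose Hes1, at 71.7, 28.1 and 9.63. Both were at least 2-fold lower in epithelium than in forebrain, at -1.29 and -1.32, the 2 of 7 tested that were lower, beside 11.9% of all genes. The 3 of 7 that were higher there, beside 13.7% of all genes, were Id3 (34.5 RPKM in forebrain, 204.3 in epithelium and 24.3 in fibers), Id1 (15.3, 85.9 and 294.3) and Bhlhe40 (1.90, 8.98 and 1.00), helix-loop-helix genes that also respond to other signals. In fiber over forebrain 1 of 6 tested was higher, Id1 (4.18), beside 15.9% of all genes. There 3 of 6 were lower, Nrarp (-2.84), Hes6 (-2.77) and Hey2 (-2.05), beside 31.6%. In fiber over epithelium 6 of 7 were lower, beside 28.3% of all genes, led by Id3 (-3.02), Bhlhe40 (-2.32) and Hey2 (-1.70). The other, Id1, was higher (1.76), beside 11.4%.

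Proneural genes, whose products switch on Dll1 and are held down by Hes repressors, were lower in epithelium than in forebrain for 5 of 7, beside 11.9% of all genes, and lower in fibers than in forebrain for 6 of 7, beside 31.6%. Neurog2 was at 43.4 RPKM in forebrain, 0.423 in epithelium and 0.106 in fibers, Insm1 at 13.4, 0.621 and 0.945 and Neurod1 at 5.05, 0.747 and 0.0592. Of the other receptors and ligands 1 of 6 was higher and 3 were lower in epithelium than in forebrain, 2 of 4 were lower in fibers than in forebrain, and 1 of 4 was higher and 3 were lower in fibers than in epithelium. Over all genes the shares were 13.7% and 11.9%, 31.6%, and 11.4% and 28.3%. The noncanonical ligand gene Dner was lower (-1.88) and Cntn1, another such gene, higher (1.80) in epithelium than in forebrain, and in fiber over epithelium Dner was higher (1.47) and Cntn1 lower (-2.61). Dlk1 and Dlk2, at 1.76 and 1.70 RPKM in forebrain, were below 0.1 RPKM in both lens libraries. The vascular receptor Notch4 (0.566, 1.75 and 0.0894 RPKM) and Dll4 were lower in fibers than in epithelium, at -1.34 and -1.31. In RPKM they were 3.09-fold and 3.29-fold higher in epithelium than in forebrain, with log2 ratios of 0.81 and 0.78 that did not pass 2-fold. With a pseudocount of 0.1 RPKM, 3 of the 6 other receptors and ligands were higher there, beside 18.3% of all genes.

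**Figure D5:**
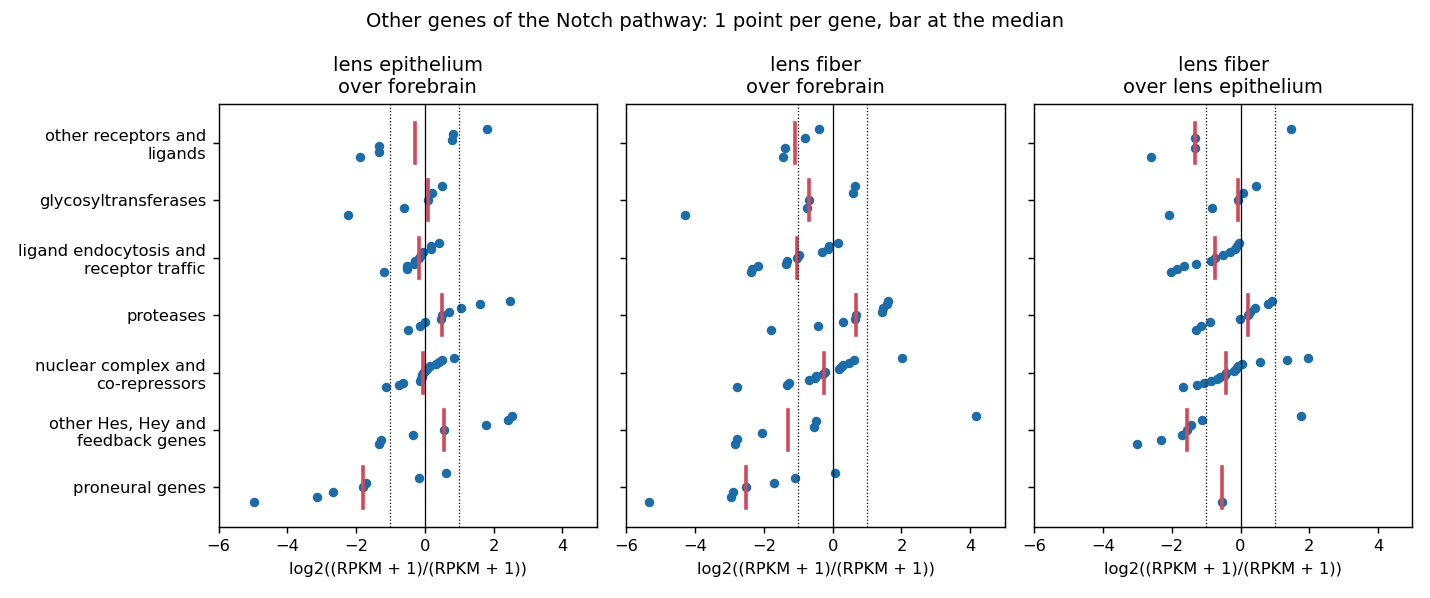
log2((RPKM + 1)/(RPKM + 1)) of the other pathway genes by list for the 3 pairs of libraries, 1 point per gene tested, red bars at the list medians and dotted lines at 2-fold. The proneural list has medians of -1.79 and -2.51 against forebrain, and the proteases have medians of 0.51 and 0.69.

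Genes with the most similar pattern over the 3 libraries were found by the distance between log2(RPKM + 1) values centred on each gene's mean, among genes within 1 log2 unit of the same mean level. For Hes5, the target with the widest range, they were Spc25 (distance 0.124), Ccna2 (0.192) and Rgcc (0.225). For Dll1 they were Trib2 (0.110), Kif15 (0.118) and Ccng2 (0.156), and for Notch2 they were Inppl1 (0.0699), Serhl (0.0840) and Pam (0.0954). Spc25, for example, was at 49.9 RPKM in forebrain, 14.2 in epithelium and 0.147 in fibers. With 3 libraries and 5016 candidate genes for Hes5, 5882 for Dll1 and 5821 for Notch2, close neighbours are to be found for most patterns.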

How the data were processed

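RNA-seq of 3 tissues, 1 library each, was analysed from a table of RPKM values deposited by the authors. Per the labels' protocols, total RNA was made into strand-specific dUTP libraries. The submitters' processing notes list mm9, TopHat2 (version 2), Cufflinks (version 2) and Cuffdiff and say nothing of their roles. The annotation, how multi-mapping reads were counted, the scaling of the libraries and their depth are not stated in the sources used here. Among 1702 genes between 0 and 0.3 RPKM in both forebrain and epithelium, 8.11% had an epithelium to forebrain ratio of 0.637 to 0.683, the most common range, so such values rest on few reads; the fiber pairs had no such step (3.12% and 3.27%). Gapdh, a housekeeping gene, was listed at 0.483, 0.199 and 0.573 RPKM, so a low listed value need not mean low expression. Whether reads shared with near copies of a gene account for this was not tested.

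Groups were taken from the labels, and all value columns were matched to samples. Pairwise log2((RPKM + 1)/(RPKM + 1)) ratios were computed for all genes that reached 1 RPKM in one of both libraries, in Python 3.11.15 with pandas 2.3.3 and numpy 2.4.6. The ratio script was tested on simulated data. No p-value was computed, since groups hold 1 library. Alternatives were a pseudocount of 0.1 RPKM, no filter or one of 5 RPKM, 3 rescalings and a 4-fold threshold. All 10 members were named, and of other lists up to 4 genes per comparison with the largest ratios. Mib1, Lfng, Rbpj, Adam10, Maml2, Notch4, Dll4 and genes named for a change under a rescaling were named after their values were seen. So were the markers Rgs5, Pdgfrb, Rax and Otx2. Some genes that the rule covers are not reported here. The members and lists were chosen with earlier results of these data known. Gene types came from RefSeq of GRCm38.p6, which matched 23812 of 23947 symbols; promoter sequences came from RefSeq on the same build. The 13 peak, island and open chromatin lists are on mm9 and were not used, since an annotation of that build was not used here.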

Additional observations from a re-analysis of the deposited data

How the results depend on the processing

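Each group held 1 library, so no replicate could be left out, and intervals could not be given for RPKM. No paired analysis was possible because each RNA group has 1 library and no result comes from a test. Over the rescalings no log2 ratio of a member past 2-fold changed its sign, and a pseudocount added to both libraries cannot change it. Over the rescalings and the pseudocount of 0.1 RPKM, 27 of the 30 ratios stayed on the same side of 2-fold (that of Dll3 in fiber over epithelium included, though under the filter). The others were Notch3 in epithelium over forebrain, 1.09 with equal sums over protein-coding genes without crystallins (chosen after seeing the data), and, with the median ratio set to 1, Jag1 (1.12) and Jag2 (-0.95) in fiber over epithelium, where 1 member was then higher. At 4-fold in place of 2-fold, 1 member was higher and 1 lower in epithelium than in forebrain, 5 were lower in fibers than in forebrain and 5 lower in fibers than in epithelium. The filters leave a ratio as it is and change only which genes are tested; with at least 5 RPKM required, 7 members in place of 8 were lower in fibers than in epithelium, and without a filter the members' counts were the same. The shares of receptors and ligands moved by less than 10 percentage points when Notch4 and Dll4 were added, also chosen after seeing the data, as were the ligand shares of all RPKM and the marker sum without Rgs5. The planned view of chromatin at these genes was not run.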

Other observations

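The forebrain library carried markers of other cells as well, which were not set beside the Notch genes above. The summed RPKM of 6 blood markers was 5634.7 in forebrain, led by the embryonic globin Hbb-y at 4223.4, 345.6 in epithelium and 6.53 in fibers. For 7 mesenchyme markers it was 87.8, 5.89 and 0.328, with the collagen gene Col3a1 at 44.6 RPKM in forebrain, 1.94 in epithelium and 0.0669 in fibers. For 6 markers of myeloid cells it was 9.38, 10.1 and 0.802. Foxe3 and Cdh1 set epithelium (19.4 and 62.3 RPKM) apart from fibers (0.433 and 0.940).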
